A study of Mus musculus with 40 samples.

Results

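The hnRNP and SR splicing factors were 32 genes of the 40213 gene symbols measured. Taken by symbol were 20 hnRNP genes (Hnrnpa0 to Hnrnpul2) and 11 SR genes (Srsf1 to Srsf7 and Srsf9 to Srsf12). Pseudogenes with these names were left out. Pnn was added by name, and the set was chosen with earlier results of these data known. All 32 had enough counts to be tested in both tissues, at 56050 to 81849 counts per midbrain library and 59475 to 78846 per spinal cord library for the 32 together. They were measured by mRNA sequencing of polyadenylated RNA in the midbrain and the spinal cord of male C57BL/6N mice. The mice were 8 weeks old when obtained, before the treatments. There were 5 groups per tissue and 4 libraries per group, or 40 libraries in all.

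Con mice received saline in place of MPTP and then saline at the acupoint GB34. The other groups received MPTP, a toxin that damages dopaminergic neurons, at 20 mg/kg in 4 injections spaced 2 h apart. MPTP-Veh mice then received saline at the acupoint GB34, and MPTP-SU mice received SUEHP (SU-Eohyeol pharmacopuncture, an herbal preparation injected at acupoints) at GB34, in 4 injections given 2 times a week from 1 week after MPTP. MPTP-SU+S mice received the cannabinoid receptor CB1 antagonist SR141716A (SR141714A in the labels) at 3 mg/kg in addition, and MPTP-SU+T mice the PPARγ inhibitor T0070907 at 5 mg/kg. No antagonist was given without SUEHP, and no SUEHP without MPTP. The labels do not say whether a library is from 1 mouse or which midbrain and spinal cord came from the same mouse, so the p-values measure only the spread between these libraries.

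hnRNP proteins bind nascent transcripts and, among other roles, tend to silence exons or package introns. SR proteins carry arginine- and serine-rich tails, bind exonic enhancers and tend to promote exon inclusion by bringing in the U1 and U2 snRNP particles, and the balance of both classes shapes alternative splicing. Pnn (pinin) is a nuclear protein of the exon junction complex that binds SR proteins and forms part of the PSAP complex with Rnps1 and Sap18. Several SR and hnRNP transcripts carry conserved exons that lead to their own decay, and the nervous system uses alternative splicing widely.

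The account of the midbrain turns on 5 members that were lower after SUEHP, Hnrnph3, Hnrnpa1, Hnrnpm, Srsf4 and Pnn, so the 250 bases before their transcription starts are shown first. The sequences are from RefSeq on GRCm38.p6, which is not the build GRCm39 named in the submitters' processing notes, and 30 of the 32 members had an entry (Hnrnpll and Hnrnpul2 had none). They read 5′ to 3′ on the gene's strand. Capitals mark matches on either strand to 6 motifs, which are CCAAT, the core of NF-Y sites, GGGCGGG, the core of Sp/KLF sites, CCGGAAG, the core of ETS sites, TATAAA, the TATA box, CGCATGCGC, the core of NRF1 sites, and the letters CGCGAG. Matches that overlap run together.
Hnrnph3, chr10:63023850-63024099, minus strand: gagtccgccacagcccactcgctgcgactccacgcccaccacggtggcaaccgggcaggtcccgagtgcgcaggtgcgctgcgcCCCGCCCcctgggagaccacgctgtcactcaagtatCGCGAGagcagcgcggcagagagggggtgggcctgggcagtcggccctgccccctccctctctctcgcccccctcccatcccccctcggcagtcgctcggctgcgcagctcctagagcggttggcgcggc
Hnrnpa1, chr15:103240147-103240396, plus strand: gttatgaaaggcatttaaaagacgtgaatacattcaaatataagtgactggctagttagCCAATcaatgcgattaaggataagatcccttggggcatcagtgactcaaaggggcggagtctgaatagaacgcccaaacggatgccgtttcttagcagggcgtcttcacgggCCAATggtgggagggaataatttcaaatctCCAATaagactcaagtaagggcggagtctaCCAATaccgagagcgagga
Hnrnpm, chr17:33685459-33685708, minus strand: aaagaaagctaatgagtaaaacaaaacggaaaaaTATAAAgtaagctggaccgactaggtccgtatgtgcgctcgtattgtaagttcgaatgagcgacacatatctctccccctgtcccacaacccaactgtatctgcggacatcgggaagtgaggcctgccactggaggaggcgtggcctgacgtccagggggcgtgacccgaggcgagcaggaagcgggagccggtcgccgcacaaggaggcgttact
Srsf4, chr4:131873387-131873636, plus strand: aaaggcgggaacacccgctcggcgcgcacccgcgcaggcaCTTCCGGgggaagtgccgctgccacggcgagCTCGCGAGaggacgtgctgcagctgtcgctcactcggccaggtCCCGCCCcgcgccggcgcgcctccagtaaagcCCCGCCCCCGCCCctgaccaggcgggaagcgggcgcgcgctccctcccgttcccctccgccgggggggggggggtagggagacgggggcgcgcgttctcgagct
Pnn, chr12:59066669-59066918, plus strand: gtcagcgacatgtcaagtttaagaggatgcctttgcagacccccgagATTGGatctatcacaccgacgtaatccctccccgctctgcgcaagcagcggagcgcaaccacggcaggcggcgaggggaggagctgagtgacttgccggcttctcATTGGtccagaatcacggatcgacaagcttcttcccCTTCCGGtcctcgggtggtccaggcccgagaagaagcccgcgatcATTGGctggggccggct

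No motif was found in all 5 upstream regions. The NF-Y core stood in Hnrnpa1 and Pnn, the ETS core in Pnn and Srsf4, the Sp/KLF core and the letters CGCGAG in Hnrnph3 and Srsf4, and the TATA box in Hnrnpm. Over the 300 bases of each entry, which run 50 bases past the start, 63.3% of the 30 members held the Sp/KLF core, against 44.8% of the promoters of the 12556 tested midbrain genes with an entry. The NF-Y core was found in 56.7% of the members against 38.1%, the letters CGCGAG in 33.3% against 20.0%, the ETS core in 23.3% against 15.7%, the TATA box in 13.3% against 7.61% and the NRF1 core in 3.33% against 3.25%. The members' entries had a median GC content of 66.7%, against 60.3% for those tested genes, and the part of GC content in these shares was not tested. These are matches of letters, not measured sites of binding.

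Levels are given as CPM (counts scaled to a common library size, by TMM) when libraries are compared, and as CPM per kilobase of the shortest principal transcript of GENCODE vM21 when genes are compared. In the midbrain of Con mice, Hnrnpa3 had the highest level per kilobase (276 ± 14.0 CPM per kb, mean ± SD, n = 4), followed by Hnrnpa2b1 (233 ± 4.32), Hnrnpk (136 ± 3.98), Srsf5 (118 ± 7.25) and Hnrnpa1 (102 ± 3.06). Hnrnpa3, Hnrnpa2b1 and Hnrnpa1 belong to the A/B type that packages introns and moves mRNA to the cytoplasm, Hnrnpk binds C-rich RNA, and Srsf5 is a classical SR protein. The lowest levels per kilobase were those of Srsf12 (11.2 ± 0.817) and Hnrnpll (12.2 ± 0.332), whose values overlapped in size, and of Srsf9 (16.2 ± 1.08), Hnrnph3 (17.4 ± 0.770) and Srsf10 (18.0 ± 0.644). The order depends on the transcript model chosen for genes with several, such as Hnrnpr or Hnrnpd.

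Between the Con tissues the members differed little, with a median log2 fold change of -0.08 for spinal cord against midbrain and 25 of 32 lower. Srsf12, an SR-related protein that antagonizes classical SR proteins, was called lower there than in the Con midbrain (log2 fold change -0.62, SE 0.16, adjusted p = 0.00348 by edgeR's quasi-likelihood test with Benjamini-Hochberg adjustment over 17426 genes). Called means an adjusted p below 0.05 and a fold change above 1.5. It was 1 of 32 members called, where 16.4% of all genes tested were called and 7.39% were called lower. At an adjusted p below 0.05 alone, which 29.8% of all genes passed, there were 5 members: Srsf12, Srsf3 (-0.26, SE 0.074) and Srsf7 (-0.31, SE 0.12) lower in the spinal cord, and Hnrnpul2 (0.26, SE 0.071) and Srsf11 (0.19, SE 0.068) higher. The call of Srsf12 is lost without midbrain Con replicate 3 (-0.55) or without spinal cord Con replicate 1 (-0.56), since its fold then lies under 1.5, and with a trend in GC content and length removed (-0.58).

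A library stood apart in the midbrain, and values without it are given where it moved a result or a call. MPTP-Veh replicate 4 had 1.35% of its counts on the mitochondrially encoded genes, against 9.92% to 17.5% in the other midbrain libraries, a summed level of 8 oligodendrocyte markers of 35670 CPM against 9916 to 14330, and a summed level of 5 red blood cell markers of 2529 CPM against 213 to 402. Its Spearman correlation with the median of the other libraries was 0.888, where the others had at least 0.987. Library totals were 11958200 to 16639823 counts in the midbrain and 14642808 to 16615378 in the spinal cord. The summed level of the spinal cord markers was at most 1.41 CPM in the midbrain and at least 524 CPM in the spinal cord, and that of the dopaminergic markers 360 to 676 CPM in the midbrain and 191 to 223 CPM in the spinal cord. Markers of neighbouring tissue varied among midbrain libraries: the hypothalamic sum reached 657 CPM in MPTP-Veh replicate 1 and 442 CPM in Con replicate 3, and the choroid plexus sum 1245 CPM in Con replicate 2. In MPTP-SU against Con the choroid plexus marker Kcnj13 was called lower (-2.61, SE 0.59, adjusted p = 0.036 by edgeR). Without MPTP-Veh replicate 4 in the model, 4 of 5 choroid plexus markers were called lower (median -2.01), beside 2.89% of all genes. Of the 3 hypothalamic markers 0 were called, with a median of -1.99. The part of such tissue in the members' values was not tested. In such tissue pieces fewer cells of a type and less RNA per cell cannot be told apart.

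**Figure D1:**
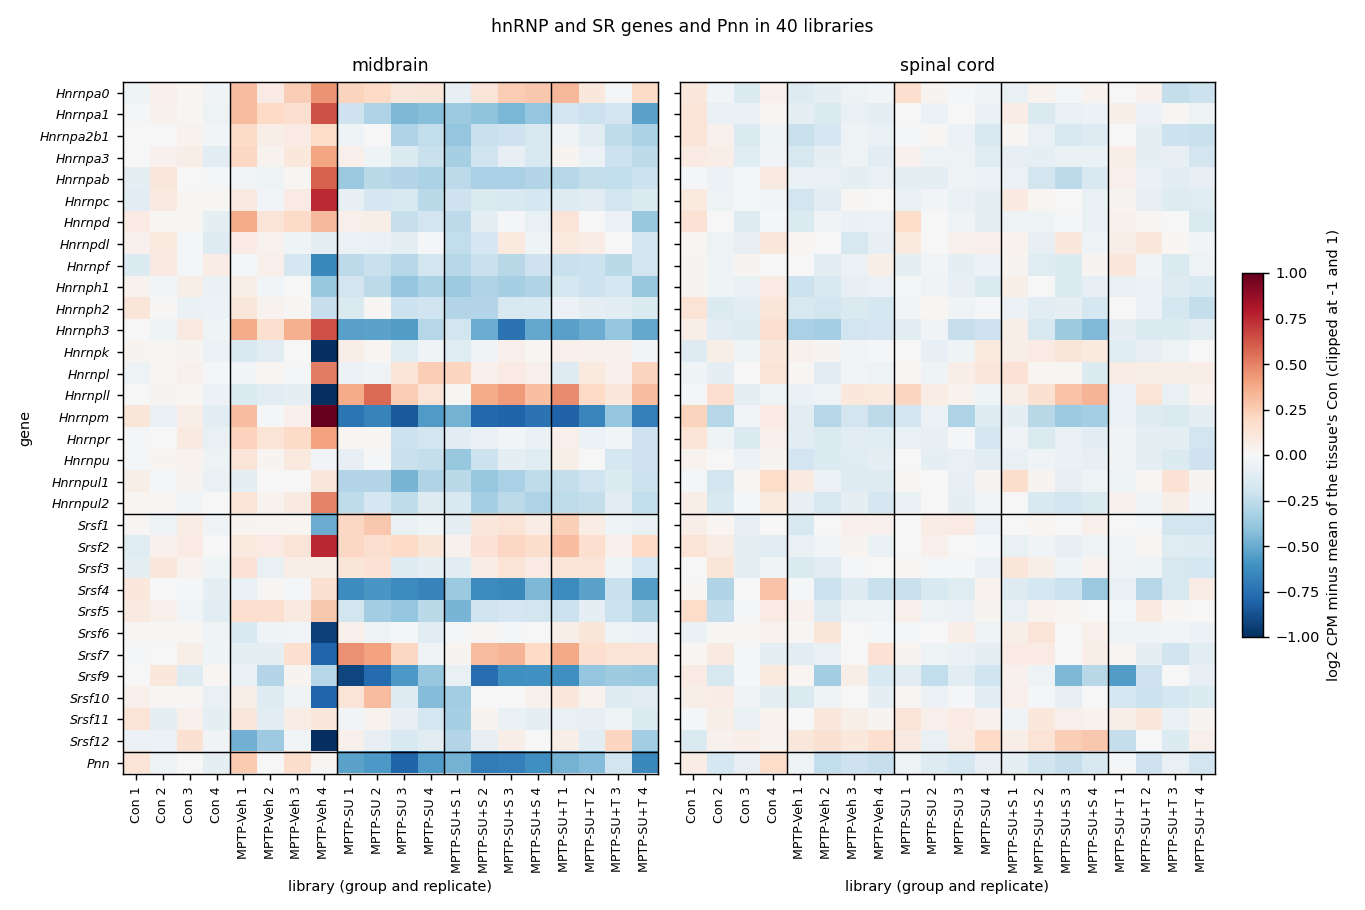
Log2 CPM of the 32 members (rows) in the 20 midbrain and 20 spinal cord libraries (columns), each minus the mean of the 4 Con libraries of the tissue and clipped at -1 and 1; vertical lines part the groups, and horizontal lines part hnRNP genes, SR genes and Pnn. In the midbrain the rows of Hnrnph3, Hnrnpm, Srsf4 and Pnn are blue (lower) in the 12 libraries that received SUEHP, MPTP-Veh replicate 4 differs from its group in many rows, and the spinal cord panel is pale, with values nearer to 0.

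In the midbrain, MPTP-SU was compared with MPTP-Veh to ask what SUEHP changed after MPTP. The members were lower on balance: 25 of 32 had a negative log2 fold change, with a median of -0.20, against a median of 0.00 over the 16629 genes tested, 50% of which were negative. Called lower were 5 members, Hnrnph3, Hnrnpa1, Hnrnpm, Srsf4 and Pnn, where 9.1% of all genes were called lower, and Hnrnpll was called higher, where 4.35% of all genes were. Together 6 of 32 members were called, or 18.8%, beside 13.5% of all genes. Of the 2237 genes called, 724 were higher, and with library size alone as the scaling 296 of 1856, with the members' counts unchanged at 5 lower and 1 higher. At an adjusted p below 0.05 alone 14 members were lower, or 43.8%, beside 12.8% of all genes, and 1 was higher, beside 7.38% (20.1% of all genes in either direction). The groups did not overlap for 15 members, 14 of them with MPTP-SU lower and 1 higher, beside 11.3% and 10.6% of all genes, or 21.9% in either direction. Each such member had an exact two-sided permutation p of 0.0286, the smallest that 4 against 4 libraries can give.

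The hnRNP genes had a median log2 fold change of -0.28 and the SR genes of -0.03. The A/B type, which binds UAGG-like elements and opposes SR proteins at many exons, was led by Hnrnpa1. It stood at 168, 157, 142 and 144 CPM in the 4 MPTP-SU libraries, at 242, 223, 216 and 302 CPM in MPTP-Veh and at 192, 200, 197 and 187 CPM in Con. All MPTP-SU values lay below all MPTP-Veh and Con values, and MPTP-Veh replicate 4 was the highest library. The fall was 1.61-fold (log2 fold change -0.69, SE 0.11, adjusted p = 0.00186 by edgeR). Without MPTP-Veh replicate 4 it was -0.57 (SE 0.080, adjusted p = 0.000236), which is below the 1.5-fold limit. Hnrnpa1 has many processed copies in the genome, and how reads shared with them were counted is not given in the sources used here. Hnrnpab (-0.47, SE 0.11, adjusted p = 0.0139) and Hnrnpa2b1 (-0.28, SE 0.090, adjusted p = 0.0396) fell by less than 1.5-fold, while Hnrnpa3 (-0.28, SE 0.099, adjusted p = 0.0544) and Hnrnpa0 (-0.11, SE 0.098) did not pass. Without MPTP-Veh replicate 4, Hnrnpab was at -0.29 (SE 0.057, adjusted p = 0.00274) and Hnrnpa0 at -0.05 (SE 0.088).

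Among the F/H type, which binds runs of G, Hnrnph3 had the smallest p of all members. Its level was 26.3, 26.4, 26.0 and 31.5 CPM in MPTP-SU, 49.7, 42.8, 49.2 and 59.9 CPM in MPTP-Veh and 38.4, 37.2, 40.8 and 37.3 CPM in Con. The groups did not overlap, and Con lay between the other groups. Hnrnph3 fell 1.83-fold (-0.87, SE 0.12, adjusted p = 0.00138 by edgeR), and its log2 fold change was -0.78 (SE 0.10) without MPTP-Veh replicate 4. Its relatives did not pass: Hnrnph1 was at -0.21 (SE 0.092, adjusted p = 0.093), Hnrnph2 at -0.12 (SE 0.086) and Hnrnpf at -0.07 (SE 0.11). In MPTP-Veh replicate 4, Hnrnph1 stood at 167 CPM against 212 to 227 CPM in the rest of its group, and without it Hnrnph1 was at -0.30 (SE 0.064, adjusted p = 0.00444). Hnrnph2 was then at -0.19 (SE 0.069, adjusted p = 0.0743) and Hnrnpf at -0.20 (SE 0.066, adjusted p = 0.0533), still short of the threshold.

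Hnrnpm, which binds GU-rich RNA and affects exon choice, had the most negative log2 fold change of the members. Its values were 70.8, 74.0, 65.7 and 79.5 CPM in MPTP-SU, 146, 117, 122 and 362 CPM in MPTP-Veh and 128, 112, 123 and 109 CPM in Con. The 362 CPM is replicate 4, and the size of the fall moved with it: -1.36 (SE 0.26, 2.57-fold, adjusted p = 0.00566 by edgeR) with that library and -0.82 (SE 0.11, adjusted p = 0.000152) without it. MPTP-SU lay under every MPTP-Veh and Con library in either case.

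The U-like pair also fell, by less. Hnrnpul1 was at 117, 117.1, 104 and 116.5 CPM in MPTP-SU, 134, 144, 144 and 156 CPM in MPTP-Veh and 150, 142, 146 and 137 CPM in Con, so that MPTP-SU lay below both other groups, which overlapped (-0.35, SE 0.074, adjusted p = 0.00927). Hnrnpul2 was at 149, 158, 149 and 163 CPM in MPTP-SU, 196, 182, 189 and 251 CPM in MPTP-Veh and 181, 180, 175 and 177 CPM in Con, with no overlap among the 3 groups (-0.40, SE 0.093, adjusted p = 0.0124). These proteins bind RNA and chromatin and take part in the DNA damage response. Hnrnpu itself, a nuclear scaffold protein, was at -0.20 (SE 0.089, adjusted p = 0.111) and did not pass.

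Hnrnpc, a core packaging protein, fell (-0.42, SE 0.13, adjusted p = 0.0292, and -0.21, SE 0.062, without MPTP-Veh replicate 4). In that library it stood at 283 CPM against 165 to 179 CPM in the other 3. Hnrnpr, known from mRNA transport in axons, fell (-0.33, SE 0.086, adjusted p = 0.0186). Hnrnpd, which binds AU-rich elements, fell (-0.33, SE 0.11, adjusted p = 0.0401), and without that library its adjusted p was 0.0554. Hnrnpk was at 0.26 (SE 0.15, adjusted p = 0.19) and did not pass. It stood at 175 CPM in MPTP-Veh replicate 4 and at 326 to 362 CPM in the other 3 libraries of the group, and without that library its log2 fold change was 0.07 (SE 0.062).

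Hnrnpll, known for regulating Cd45 splicing in lymphocytes, was the member that rose. It was at 47.2, 54.0, 43.6 and 39.8 CPM in MPTP-SU, 33.2, 33.7, 34.3 and 15.7 CPM in MPTP-Veh and 36.7, 37.3, 37.0 and 35.1 CPM in Con. MPTP-SU lay above every MPTP-Veh and Con library, and MPTP-Veh replicate 4 was the lowest. The rise was 1.57-fold (log2 fold change 0.66, SE 0.18, adjusted p = 0.0218 by edgeR), and 0.45 (SE 0.11, adjusted p = 0.00916) without that library, which is under 1.5-fold. Its relative Hnrnpl did not pass. Hnrnpl was at 128, 130, 146 and 158 CPM in MPTP-SU, 131, 135, 132 and 190 CPM in MPTP-Veh and 129, 135, 137 and 132 CPM in Con, with overlapping groups (-0.07, SE 0.12, adjusted p = 0.69, and 0.08 without MPTP-Veh replicate 4). Hnrnpdl, related to Hnrnpd, was likewise among the 3 members with the largest p, at 165, 164, 161 and 170 CPM in MPTP-SU, 181, 176, 166 and 161 CPM in MPTP-Veh and 177, 184, 170 and 157 CPM in Con (-0.05, SE 0.090, adjusted p = 0.689, and -0.08 without MPTP-Veh replicate 4).

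**Figure D2:**
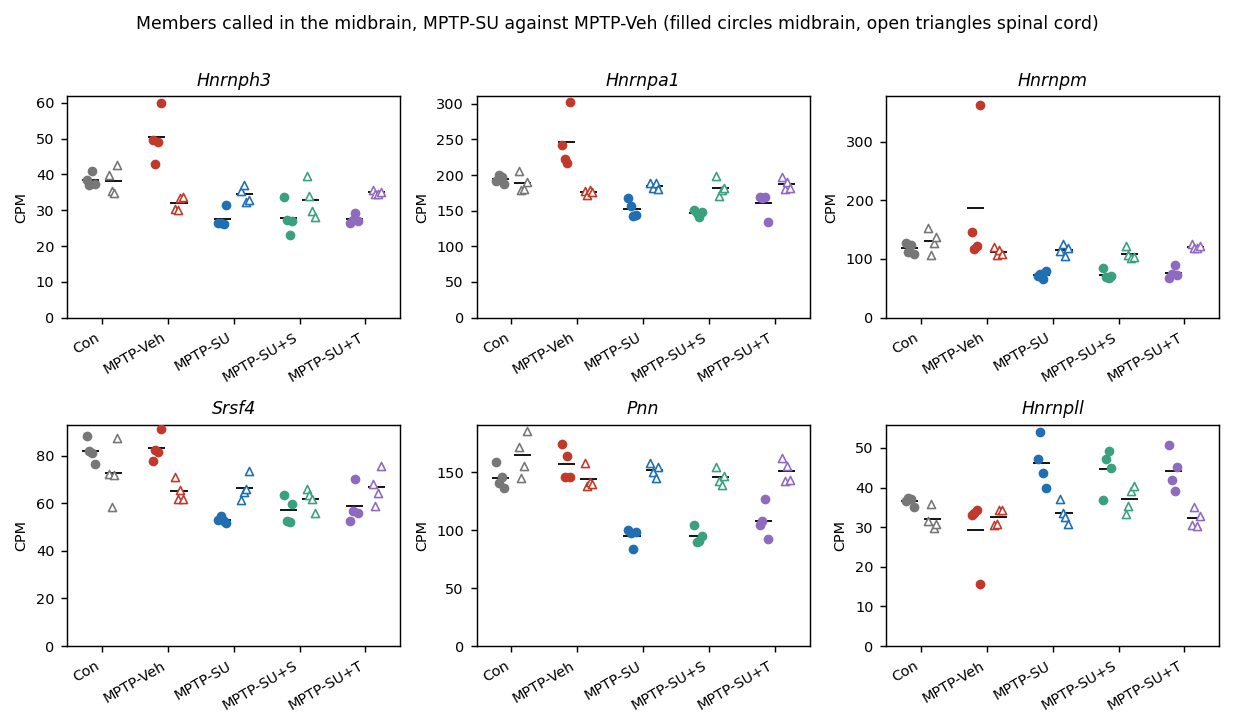
CPM of the 6 members called between MPTP-SU and MPTP-Veh in the midbrain, by group, from 0; filled circles are midbrain libraries, open triangles spinal cord libraries (4 each per group) and the bar the group mean. Midbrain MPTP-SU lies below MPTP-Veh in every panel but Hnrnpll, where it lies above, the midbrain MPTP-SU+S and MPTP-SU+T libraries stay near MPTP-SU, and Hnrnpm reaches 362 CPM in 1 MPTP-Veh library.

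Of the SR proteins, Srsf4 was called. It was at 53.0, 54.6, 52.6 and 51.6 CPM in MPTP-SU, 77.8, 82.5, 81.4 and 91 CPM in MPTP-Veh and 88.1, 82.0, 81.1 and 76.7 CPM in Con, so that MPTP-Veh and Con overlapped and MPTP-SU lay below both. The fall was 1.57-fold (-0.65, SE 0.097, adjusted p = 0.00168 by edgeR) and -0.61 (SE 0.089) without MPTP-Veh replicate 4. Srsf5 and Srsf6 have the same domain layout as Srsf4. Srsf5 was at 154, 137, 134 and 145 CPM in MPTP-SU, 197, 197, 187 and 211 CPM in MPTP-Veh and 186, 182, 172 and 162 CPM in Con, and fell 1.39-fold (-0.47, SE 0.088, adjusted p = 0.00553). Srsf6 was at 0.21 (SE 0.13, adjusted p = 0.237), with 55.1 CPM in MPTP-Veh replicate 4 against 94.5 to 103 CPM in the other 3, and 0.04 (SE 0.061) without that library.

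Srsf9, which is close to Srsf1 in sequence, fell (-0.50, SE 0.15, adjusted p = 0.0279), with 9.93 to 14.4 CPM in MPTP-SU and 15.3 to 19.0 CPM in MPTP-Veh. Srsf3, which couples splicing to mRNA export, had the largest p of all members. It was at 139.8, 142.5, 118.1 and 121.3 CPM in MPTP-SU, 142.5, 122.2, 135.1 and 133.9 CPM in MPTP-Veh and 120.5, 138.4, 132.1 and 124.9 CPM in Con (-0.03, SE 0.096, adjusted p = 0.819), with overlapping groups. Srsf1 (0.19, SE 0.12), Srsf2 (-0.12, SE 0.12), Srsf7 (0.43, SE 0.15, adjusted p = 0.05, not below the threshold), Srsf10 (0.18, SE 0.16), Srsf11 (-0.11, SE 0.090) and Srsf12 (0.44, SE 0.21) did not pass. Of these, Srsf1, Srsf7, Srsf10 and Srsf12 were lowest of the group in MPTP-Veh replicate 4 and Srsf2 was highest, and without it Srsf7 was at 0.27 (SE 0.11), Srsf12 at 0.20 (SE 0.13), Srsf1 at 0.08 (SE 0.090), Srsf10 at 0.03 (SE 0.13) and Srsf2 at 0.07 (SE 0.068).

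Pnn had the second smallest p. It was at 100, 97.8, 83.5 and 98.3 CPM in MPTP-SU, 174, 146, 164 and 146 CPM in MPTP-Veh and 159, 140, 146 and 137 CPM in Con. MPTP-SU lay below both other groups, and MPTP-Veh replicate 4 was within the range of its group. The fall was 1.66-fold (-0.73, SE 0.10, adjusted p = 0.00161 by edgeR) and -0.76 (SE 0.098, adjusted p = 0.000133) without that library.

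**Figure D3:**
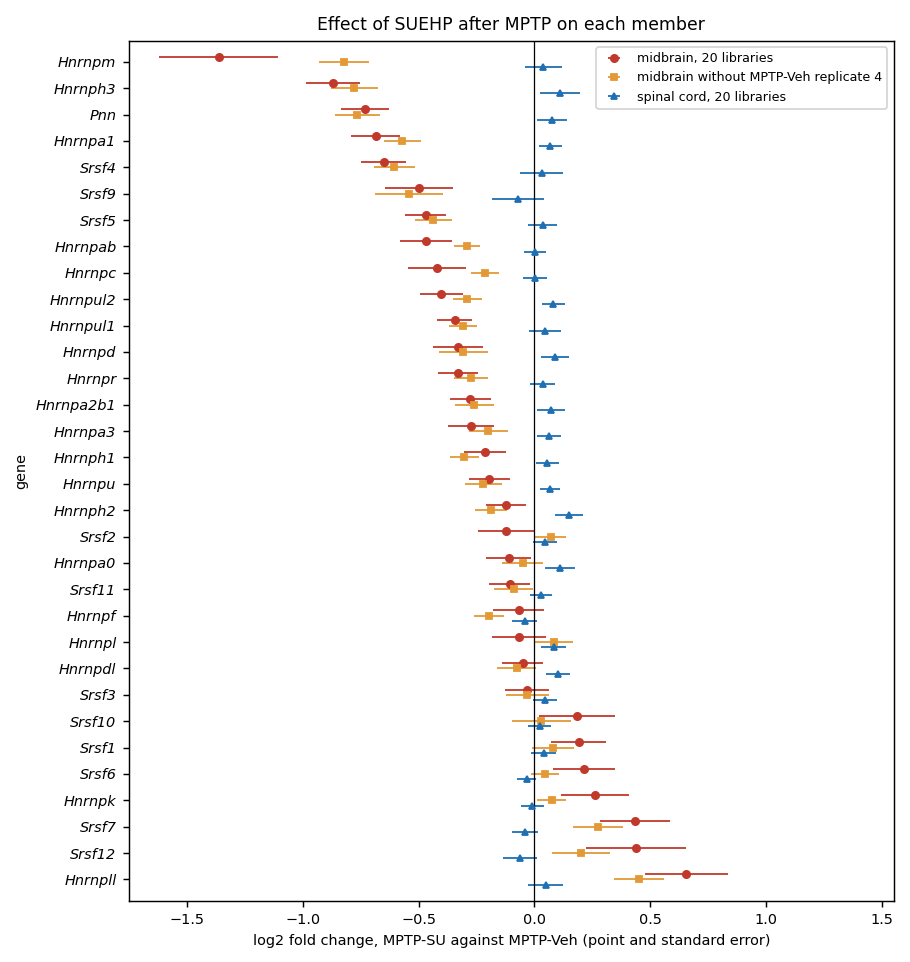
Log2 fold change of MPTP-SU against MPTP-Veh with its standard error for each of the 32 members, in the midbrain with all 20 libraries in the fit (circles), in the midbrain without MPTP-Veh replicate 4 (squares) and in the spinal cord (triangles). Midbrain points run from -1.36 (Hnrnpm) to 0.66 (Hnrnpll), the squares of Hnrnpm, Hnrnpc and Hnrnpll lie nearer to 0 than the circles, and all spinal cord points lie between -0.07 and 0.15.

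Without MPTP-Veh replicate 4, 4 members were called, all lower (Hnrnph3, Hnrnpm, Srsf4 and Pnn), beside 3.4% of all genes in either direction. At an adjusted p below 0.05 alone there were 14 lower, beside 8.07% of all genes, and 1 higher, with Hnrnph1 entering and Hnrnpd leaving. With it left out, the 4 MPTP-SU libraries lay below the other 3 MPTP-Veh libraries for 18 members, beside 13.3% of all genes, and above them for 1. With the 8 libraries of these groups alone in the model, 0 members and 0 genes were called by edgeR, the members' adjusted p being 0.216 or more, although 13 members were lower at an unadjusted p below 0.05, beside 13.3% of all genes. With the same groups but without that library, a model chosen after seeing the data, 4 members were called, all lower. Of all genes 3.58% were called in either direction. At an adjusted p below 0.05 it was 11 members lower, beside 6.64% of all genes.

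**Figure D4:**
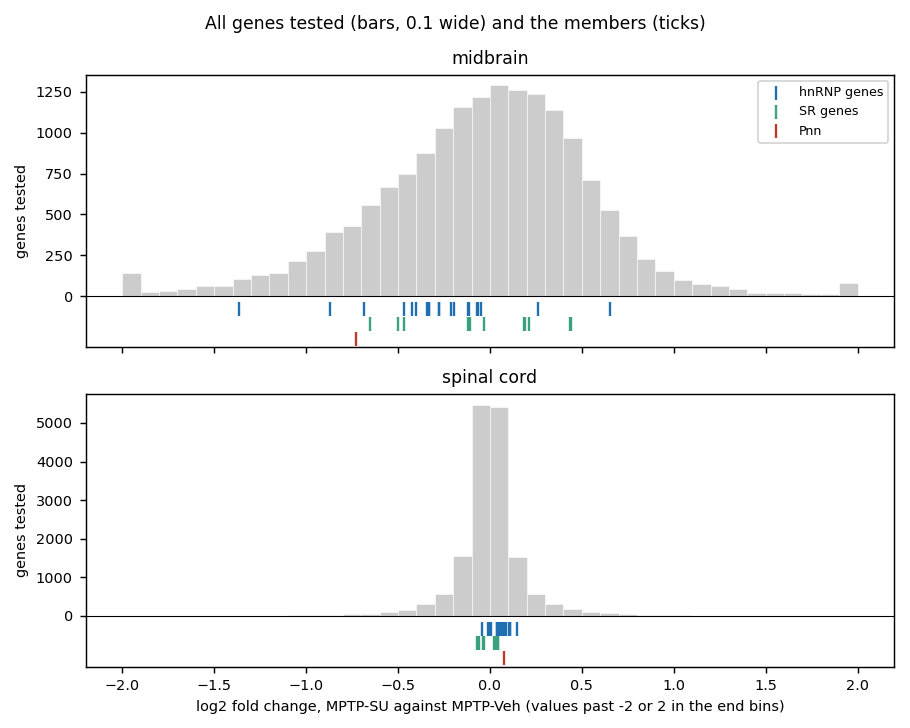
Distribution of the log2 fold change of MPTP-SU against MPTP-Veh over all genes tested (bars, 0.1 wide, values past -2 or 2 in the end bins) with the members as ticks below, in the midbrain (16629 genes) and the spinal cord (16682 genes). In the midbrain 25 of 32 ticks lie left of 0 inside a wide distribution, and in the spinal cord 26 of 32 lie right of 0 inside a narrow one.

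MPTP-Veh was compared with Con to ask what MPTP alone changed. No member was called in the midbrain, where 0.018% of all genes were. By DESeq2 it was also 0. There Hnrnph3 (0.40, adjusted p = 0.0382) and Hnrnpa1 (0.35, adjusted p = 0.0421) passed the adjusted p but were under 1.5-fold. At an unadjusted p below 0.05 by edgeR it was 9 members, 8 higher and 1 lower, beside 15.6% and 8.15% of all genes, or 23.7% in either direction. The groups did not overlap for 10 members, 9 of them higher in MPTP-Veh and 1 lower, beside 6.37% and 6.03% of all genes, or 12.4% in either direction. The smallest p-values by edgeR were those of Hnrnph3 (0.39, SE 0.12, adjusted p = 0.13), Hnrnpa1 (0.34, SE 0.11, adjusted p = 0.13) and Hnrnpa0 (0.28, SE 0.098, adjusted p = 0.136). Without MPTP-Veh replicate 4 they were at 0.30 (SE 0.10), 0.23 (SE 0.080) and 0.22 (SE 0.088), with adjusted p-values of 0.243 to 0.331, and 6 members had an unadjusted p below 0.05, beside 12.1% of all genes. The median over the members was 0.05, with 20 positive and 12 negative. MPTP-SU is set against the same MPTP-Veh libraries, so a high value there enters both comparisons with opposite signs.

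MPTP-SU against Con asks whether the members in mice given SUEHP after MPTP stood at the level of mice given saline alone. The MPTP-Veh libraries do not enter its fold changes, but in the model over all 20 libraries they enter the estimate of the spread. Called were 3 members, all lower than Con, beside 0.613% of all genes called lower and 0.764% called in either direction: Srsf4 (-0.63, SE 0.097, adjusted p = 0.00684), Pnn (-0.62, SE 0.10, adjusted p = 0.015) and Srsf9 (-0.65, SE 0.15, adjusted p = 0.035). Srsf9 was at 17.1 to 20.2 CPM in Con and 9.93 to 14.4 CPM in MPTP-SU. Hnrnpul1 (-0.34, SE 0.074) and Hnrnph3 (-0.48, SE 0.12) passed at an adjusted p below 0.05, which made 5 members lower, beside 1.02% of all genes lower and 1.25% in either direction. The groups did not overlap for 12 members with MPTP-SU lower, beside 10.9% of all genes, and for 3 with MPTP-SU higher (Hnrnpll, Hnrnpa0 and Srsf2), beside 8.73%, or 19.6% in either direction. Hnrnpm was 1 of the 12 but missed the threshold in this model (-0.70, SE 0.25, adjusted p = 0.169). With only MPTP-Veh replicate 4 taken out of the model, a choice made after seeing the data, it was called (-0.70, SE 0.10, adjusted p = 0.000521). Then 4 members were called, all lower (Srsf4, Hnrnpm, Pnn and Srsf9), beside 2.89% of all genes called lower, and 12 were lower at an adjusted p below 0.05, beside 8.65% of all genes. With the 8 compared libraries alone in the model the same 4 members were called, beside 2.66% of all genes called lower. Hnrnpm then had an adjusted p of 0.00197 by edgeR. The count called in the model over all libraries was 1 to 2 with any of the 8 compared libraries left out. It was 1 without Con replicate 1 or without MPTP-SU replicate 3, where the fold of Pnn was under 1.5 (-0.57 and -0.56). Srsf4 was called in each of these fits with a compared library left out, and Srsf9 in none of them. Hnrnpul1 did not pass in any of them either (adjusted p of 0.0674 to 0.0971 by edgeR).

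The antagonist groups ask whether CB1 or PPARγ is needed for the effect of SUEHP. Against MPTP-SU, 0 of 32 members were called with the CB1 antagonist and 0 with the PPARγ inhibitor, by edgeR and by DESeq2, and 0 had an unadjusted p below 0.05 in either. Without MPTP-Veh replicate 4 in the model the calls were again 0, and Hnrnpul1 with the PPARγ inhibitor had an unadjusted p of 0.022. Among all genes 0% were called, and 1.65% and 1.7% had an unadjusted p below 0.05. The groups did not overlap for 0 members with the CB1 antagonist, beside 2.15% of all genes. With the PPARγ inhibitor that was so for 1 member, beside 1.96% of all genes and 1% higher: Hnrnpul1 (0.14, SE 0.074, adjusted p = 1), at 122, 125, 130 and 124 CPM, which was higher than in MPTP-SU. The other members with the smallest p-values were Srsf4 (0.11, SE 0.097), Hnrnpa3 (-0.11, SE 0.099) and Srsf9 (0.16, SE 0.15) with the CB1 antagonist, and Pnn (0.19, SE 0.10) and Srsf4 (0.15, SE 0.097) with the PPARγ inhibitor.

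The 5 members called lower after SUEHP kept low values in the antagonist groups. In MPTP-SU+S Hnrnph3 stood at 33.8, 27.3, 23.0 and 26.9 CPM, and with the PPARγ inhibitor at 26.4, 27.2, 29.3 and 26.9 CPM, under all Con and MPTP-Veh libraries. In the same order of groups Pnn was at 104.5, 89.6, 90.5 and 95.2 CPM and at 104.8, 107.8, 127 and 92.7 CPM, and Srsf4 at 63.3, 52.6, 52.2 and 59.9 CPM and at 52.5, 56.6, 70.2 and 55.9 CPM. Hnrnpm was at 84.8, 68.4, 67.6 and 70.7 CPM and at 67.1, 74.4, 90.1 and 73.3 CPM, and Hnrnpa1 at 151, 147, 142 and 148 CPM and at 170, 167, 170 and 134 CPM. None of these values reached the lowest Con or MPTP-Veh library of its gene. The upper end belonged to 1 library in each group, MPTP-SU+S replicate 1 for Hnrnph3, Pnn, Srsf4, Hnrnpm and Hnrnpa1, and MPTP-SU+T replicate 3 for Hnrnph3, Pnn, Srsf4 and Hnrnpm. Hnrnpll, called higher, was at 36.9, 47.3, 49.1 and 44.9 CPM with the CB1 antagonist and at 50.7, 41.95, 39.2 and 45.3 CPM with the PPARγ inhibitor. All 8 values lay above MPTP-Veh, but MPTP-SU+S replicate 1 lay within the range of Con, 35.1 to 37.3 CPM.

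Over the whole of the midbrain, 8 members (Hnrnpa1, Hnrnpab, Hnrnph3, Hnrnpm, Hnrnpul1, Hnrnpul2, Srsf4 and Pnn) lay lower in all 12 libraries that received SUEHP than in all 8 that did not, and 0 lay higher, a count made after seeing the values. Among all genes 1.86% lay lower in this way and 1.03% higher. Against the 4 Con libraries alone, which leaves out MPTP-Veh, 10 members lay lower in all 12, with Hnrnpf and Hnrnph1 added, beside 3.99% of all genes. The summed level of the 32 members was 4289 ± 226 CPM in MPTP-SU, 4201 ± 163 CPM with the CB1 antagonist and 4365 ± 208 CPM with the PPARγ inhibitor (mean ± SD, n = 4 each). It was 5012 ± 216 CPM for MPTP-Veh and 4711 ± 123 CPM for Con. The summed level of 8 neuronal markers was 5440 to 6464 CPM for MPTP-SU, 6207 to 7276 CPM for MPTP-Veh and 6136 to 6856 CPM for Con, so that MPTP-SU overlapped both other groups. Of these 8 markers, 2 were called lower between MPTP-SU and MPTP-Veh (Rbfox3 and Eno2). Without MPTP-Veh replicate 4 it was 0, with a median log2 fold change of -0.24 over the markers and -0.21 over the members. In MPTP-SU against Con without that library in the model, 1 marker was called lower (median -0.09), beside 2.89% of all genes. The part of these markers in the members' values was not tested.

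In the spinal cord, 0 members were called in any of the 5 comparisons, by edgeR or DESeq2. Of all genes, 0% were called by edgeR in 4 of them and 0.024% in MPTP-SU+T against MPTP-SU. Between MPTP-SU and MPTP-Veh, 1 member had an unadjusted p below 0.05 beside 3.81% of all genes, and 2 did not overlap, Hnrnph2 and Hnrnpa1, both higher in MPTP-SU, beside 3.27% of all genes and 1.41% higher. The median of the members was 0.05, with 26 positive. The smallest p-values were those of Hnrnph2 (0.15, SE 0.060), Hnrnpdl (0.10, SE 0.052) and Hnrnpa0 (0.11, SE 0.065), each at an adjusted p of 0.999. The members called in the midbrain did not pass. Pnn was at 158.5, 150.2, 145.2 and 154.8 CPM in MPTP-SU and 158.1, 137.9, 142 and 140 CPM in MPTP-Veh (0.07, SE 0.065). Hnrnph3 was at 0.11 (SE 0.086), Srsf4 at 0.03 (SE 0.092), Hnrnpm at 0.04 (SE 0.079), Hnrnpa1 at 0.07 (SE 0.050) and Hnrnpll at 0.05 (SE 0.076). The common dispersion was 0.0071 in the spinal cord and 0.0512 in the midbrain.

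After MPTP alone, 27 of 32 members were lower than Con in the spinal cord, with a median of -0.07, against 50.6% of all genes. With an unadjusted p below 0.05 there were 9, all lower, beside 6.68% of all genes lower and 12.8% in either direction. The groups did not overlap for 6, 5 of them lower, beside 2.47% of all genes lower and 4.73% in either direction. Hnrnpu (-0.13, SE 0.042, adjusted p = 0.242), Hnrnph3 (-0.26, SE 0.086, adjusted p = 0.249) and Pnn (-0.19, SE 0.065, adjusted p = 0.251) had the smallest p-values. Hnrnph3 was at 30.4, 30.1, 33.3 and 33.8 CPM in MPTP-Veh and 39.9, 35.3, 34.8 and 42.7 CPM in Con, without overlap. MPTP-SU against Con was led by Hnrnpm (-0.18, SE 0.079), Hnrnph3 (-0.15, SE 0.085) and Pnn (-0.11, SE 0.065), at adjusted p-values of 0.519 to 0.613, and 1 member had an unadjusted p below 0.05, beside 9.17% of all genes. Against MPTP-SU, 0 members had an unadjusted p below 0.05 with the CB1 antagonist, beside 5.49% of all genes, and 2 with the PPARγ inhibitor, beside 12.1%. In these comparisons the smallest p-values were those of Hnrnpk (0.10, SE 0.049), Hnrnpab (-0.09, SE 0.048) and Hnrnpll (0.14, SE 0.075) with the CB1 antagonist, and those of Srsf10 (-0.13, SE 0.050), Srsf1 (-0.12, SE 0.054) and Hnrnpa0 (-0.13, SE 0.066) with the PPARγ inhibitor.

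The effect of SUEHP after MPTP was tested for a difference between the tissues in 1 model over all 40 libraries. That model shares 1 estimate of the spread per gene between tissues with common dispersions of 0.0512 (midbrain) and 0.0071 (spinal cord). Its adjusted p-values therefore do not rest on the midbrain spread alone. The midbrain effect minus the spinal cord effect was called for 6 members, 5 lower and 1 higher, beside 8.14% and 4% of all genes, or 12.1% in either direction. They were Hnrnph3 (-0.97, SE 0.14, adjusted p = 0.000162), Hnrnpa1 (-0.75, SE 0.11, adjusted p = 0.000162), Pnn (-0.80, SE 0.12, adjusted p = 0.000168), Hnrnpm (-1.39, SE 0.27, adjusted p = 0.0018), Srsf4 (-0.68, SE 0.14, adjusted p = 0.00215) and Hnrnpll (0.61, SE 0.20, adjusted p = 0.0336). At an adjusted p below 0.05 alone, 15 members were lower, beside 10.7% of all genes, and 2 were higher, beside 6.11%, or 16.8% in either direction. Without midbrain MPTP-Veh replicate 4, 5 were called, all lower (Hnrnpm then at -0.84, SE 0.14), beside 3.9% of all genes in either direction. At an adjusted p below 0.05 alone 15 were lower, beside 5.99% of all genes.

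Other genes of the splicing machinery were followed in fixed lists between MPTP-SU and MPTP-Veh in the midbrain, by the same test and beside the 9.1% of all genes called lower. Of 49 tested core snRNP proteins, the constitutive parts of the spliceosome, 19 were called lower and 0 higher, with a median of -0.45. Snrpf, an Sm protein (-1.01, SE 0.19), Lsm6, a U6 snRNP protein (-0.65, SE 0.13), and Sf3a2, of the U2 snRNP (-1.39, SE 0.30), had the smallest p-values. Of 53 other splicing regulators tested, out of 57 listed, 8 were called lower and 0 higher (median -0.17), led by Rbm17 (-1.07, SE 0.16), Celf4 (-0.61, SE 0.11) and Elavl3 (-1.01, SE 0.22). Of the 8 exon junction and PSAP partners of Pnn, 2 were called lower, Acin1 (-1.0, SE 0.24), which takes the place of Pnn in the related ASAP complex, and Rbm8a, of the exon junction core (-0.79, SE 0.19). All 8 were negative (median -0.37). Among 10 factors of nonsense-mediated decay, which degrades mRNAs with early stop codons, 4 were called lower, among them Upf3b (-1.26, SE 0.22) and Upf3a (-1.13, SE 0.26), and 1 higher, Smg1 (0.72, SE 0.20). Among 13 kinases and importers of SR proteins 1 was called, the importer Tnpo1, higher (0.67, SE 0.20).

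These counts depend on MPTP-Veh replicate 4. Without it, 4 of the 49 core snRNP proteins were called lower (median -0.33), 1 of the 53 other regulators (median -0.08), 0 of the 8 partners of Pnn (median -0.25), 1 of the 10 decay factors (median -0.32) and 0 of the 13 kinases and importers, beside 3.4% of all genes called. In MPTP-SU against Con, called lower were 0 core snRNP proteins, 2 other regulators (Celf5 at -0.75, SE 0.12, and Rbm17 at -0.66, SE 0.16), and 0 genes of the other lists. Without MPTP-Veh replicate 4 in the model these were 2, 3 and 0, beside 2.89% of all genes called lower. The smaller share with all libraries in the model is given with that comparison above. In MPTP-Veh against Con 0 genes of these lists were called, and the core snRNP proteins had a median of 0.32 with 37 of 49 positive.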

How the data were processed

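Polyadenylated RNA from 40 libraries was sequenced (CORALL RNA-Seq V2). The authors trimmed reads with fastp, aligned with STAR and quantified with Salmon, on build GRCm39 per the submitters' processing notes, which also name GATK; versions, annotation, strand setting and use of molecular identifiers are not given in the sources used here. The labels name RNAiso Plus for the RNA, the study's methods an Easy-Spin kit. The deposited tables hold estimated counts per gene symbol as whole numbers, not normalized.

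Counts were analysed with edgeR 4.0.16 in R 4.3.3 (filterByExpr over groups, TMM, quasi-likelihood test, Benjamini-Hochberg adjustment over all genes tested), in 1 model per tissue over 20 libraries and 1 model over 40 for contrasts between tissues. Log2 CPM used a prior count of 2. The code was tested on simulated data. Alternatives were DESeq2 1.42.0, other scalings and filters, a GC and length trend, a replicate term, the compared libraries alone and each library left out; models without midbrain MPTP-Veh replicate 4 for comparisons that do not hold it were added after seeing the data. Members, lists and tests were chosen with earlier results of these data known. Values in every library are given for the 8 members with the smallest p in midbrain MPTP-SU against MPTP-Veh, Pnn and the 3 with the largest, and up to 3 called genes per list; Hnrnpll was added after its values were seen, since it was called. Of the other marker lists, between MPTP-SU and MPTP-Veh in the midbrain, 3 astrocyte, 3 microglia, 1 blood vessel and 0 cerebellum genes were called, and 0 of each without MPTP-Veh replicate 4. No protein sequences were used.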

Additional observations from a re-analysis of the deposited data

Results flagged for a closer look

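Between the replicates of a group, 8 of 110 sets of 4 libraries held a library set apart from the other 3, by Dixon's ratio of the gap to the nearest library over the range of the group, at its 95% critical value. Chance flags about 1 in 20 sets. They were all in the midbrain. Those of MPTP-Veh replicate 4 were Hnrnpm (362 CPM, the next at 146 CPM) and Hnrnpl (190 CPM, the next at 135 CPM), in the library with the low mitochondrial share. In MPTP-SU, Hnrnph3 stood at 31.5 CPM in replicate 4 (next 26.4 CPM), and Pnn at 83.5 CPM (next 97.8 CPM) and Hnrnpul1 at 104 CPM (next 117 CPM) in replicate 3. In the antagonist groups, Hnrnpa1 stood at 134 CPM in MPTP-SU+T replicate 4 (next 167 CPM), Hnrnpul2 at 165 CPM in MPTP-SU+T replicate 3 (next 151 CPM) and Srsf5 at 127 CPM in MPTP-SU+S replicate 1 (next 153 CPM).

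The effect of MPTP-SU against MPTP-Veh differed between midbrain and spinal cord for 17 members at an adjusted p below 0.05 (edgeR, interaction term). On the log2 scale, midbrain minus spinal cord, the differences were -1.39 for Hnrnpm, -0.97 for Hnrnph3, -0.80 for Pnn, -0.75 for Hnrnpa1, -0.68 for Srsf4, -0.50 for Srsf5, -0.48 for Hnrnpul2, -0.46 for Hnrnpab, -0.42 for Hnrnpc, -0.41 for Hnrnpd, -0.39 for Hnrnpul1, -0.36 for Hnrnpr, -0.34 for Hnrnpa2b1, -0.33 for Hnrnpa3 and -0.26 for Hnrnpu. They were 0.61 for Hnrnpll and 0.48 for Srsf7. Without midbrain MPTP-Veh replicate 4, Hnrnpc, Hnrnpa3 and Srsf7 no longer passed, and Hnrnph1 (-0.34) and Hnrnph2 (-0.32) did.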

How the results depend on the processing

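Between MPTP-SU and MPTP-Veh in the midbrain, the count of members called was 6 in the model reported, 15 at an adjusted p alone, 11 (all lower, Srsf4 then at -0.50 and under 1.5-fold) with a trend in GC content and length removed, 0 with the 8 compared libraries alone, where Hnrnph3, Pnn and Srsf4 had an adjusted p of 0.216, and 4 to 7 with 1 library left out. The median over members was -0.43 with the trend removed and -0.23 to -0.17 with 1 library left out. In the same comparison Hnrnpl, at -0.07, turned to 0.17 with the trend removed and to 0.0744 with the compared libraries alone without MPTP-Veh replicate 4, and ran from -0.1236 to 0.0829 with 1 library left out, the last without MPTP-Veh replicate 4. Srsf3, at -0.03, ran from -0.0749 to 0.0154 with 1 library left out, and was positive without MPTP-SU replicate 3 or 4 or MPTP-Veh replicate 1. For MPTP-SU against Con the count was 3, 5 at an adjusted p alone and 1 to 2 with 1 library left out, and the median, -0.11, was -0.22 with the trend removed and -0.23 with library size alone. For MPTP-Veh against Con the median, 0.05, was 0.22 with the trend removed and -0.0355 with library size alone, and 0 to 1 members were called with 1 library left out. With library size alone the medians of MPTP-SU+S and MPTP-SU+T against MPTP-SU were 0.0609 and 0.1153. That scaling put the median of all genes at -0.11 for MPTP-SU against Con, and called 1856 genes between MPTP-SU and MPTP-Veh, 296 of them higher, beside 2237 and 724 in the model reported. Srsf9 in MPTP-SU+S against MPTP-SU ran from -0.0118, without MPTP-SU+S replicate 1, to 0.2537 with 1 library left out. In the spinal cord the median of MPTP-SU+T against MPTP-SU was 0.023 with the trend removed. For the Con tissues the count, 1, was 5 at an adjusted p alone, 0 with the trend removed and 0 to 1 with 1 library left out, and for the difference between tissues the count, 6, was 17, 13 and 5 to 8. The cause of these changes was not tested. Of 216 recomputed counts of members called 203 were within 1.5 times the value reported. These include comparisons in which 0 members were called in the model reported, so that 0 was the value to match. The deviations of same-numbered libraries from their group means correlated above 0.1 for 3 of 4 numbers between MPTP-SU and MPTP-Veh and between MPTP-SU+T and MPTP-SU in the midbrain, and for 0 to 1 of 4 in the other 8 pairs of groups within a tissue. In no pair of groups was this so for all 4, so the libraries were taken to share only a number. Yet of the 8 libraries of MPTP-SU and MPTP-Veh in the midbrain 5 correlated best with their own number. Whether same-numbered libraries share more than the number was not tested. With a replicate block, which takes the number as a term, the count between MPTP-SU and MPTP-Veh in the midbrain was 6. For MPTP-SU against Con it was 2 in place of 3, with Srsf9 at an adjusted p of 0.0515, and Hnrnpul1 (0.0506) and Hnrnph3 (0.0608) were past 0.05. The block changed no other count of members called.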
